A study of Mus musculus with 8 samples.

Results

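Calmodulin and the calmodulin-dependent protein kinases were examined in mouse vascular smooth muscle cells that carried either the PMCA4 knockout (KO) or the wild-type (WT) genotype. The genes considered were Calm2, Calm3, Camk1, Camk1d, Camk2d, Camk2g, Camk4, Camkk1 and Camkk2, and every array probe annotated to one of them was taken, whatever its values. These were 14 of the 25697 probes, annotated to 8 of the 9 genes, since no probe was annotated to Camkk1. Of the 14 probes, 10 probes of 6 genes were above background on at least 4 of the 8 arrays and were tested.

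The samples were primary vascular smooth muscle cells from the carotid artery of male C57bl6 mice, 4 KO and 4 WT, each hybridised to 1 Illumina array. PMCA4 is a plasma membrane pump that exports calcium and is itself stimulated by calmodulin; its gene is Atp2b4. Cells of both genotypes had been synchronised with respect to serum, given serum together with PDGF-BB, a growth factor released by platelets, stained with the DNA dye Hoechst and sorted for early G1, so the stimulation and the sort were shared by all samples. The labels give neither the age of the mice nor the deleted part of the gene, and leave unsaid whether replicates are separate mice, separate cultures or repeats of 1 culture. Every p-value therefore reflects the spread among these particular arrays, part or all of which may be technical.

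Calmodulin is a small protein that binds calcium as calcium rises in the cell and then attaches to other proteins and changes their activity. In smooth muscle it activates myosin light chain kinase and so drives contraction. It also activates the CaM kinases. The CaMKI and CaMKIV enzymes are switched on further by an upstream kinase, CaMKK, which also phosphorylates the energy sensor AMPK. CaMKII forms large holoenzymes that phosphorylate themselves and stay active after calcium has fallen, and its delta and gamma isoforms are the ones best known from vascular smooth muscle.

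Detected probes numbered 11712 to 11987 on the KO arrays and 11697 to 11886 on the WT arrays (detection p under 0.05). With 4 arrays a genotype, precision is limited by that number. Atp2b4 did not separate the genotypes. Its only tested probe had log2 intensities of 7.17, 6.99, 6.56 and 7.07 on the KO arrays, against 6.72, 6.90, 7.05 and 6.89 on the WT arrays, a log2 difference of 0.06 (limma adjusted p = 0.719), and its other 2 probes were at background on all arrays. Atp2b4 thus gave no check of the genotype labels here. Whether its tested probe reads the deleted part was not tested, and KO and WT below mean the arrays labelled so. Of the smooth muscle markers, Cnn1 was at background on every array, while 6 of 9 were tested, 5 of them higher in KO and 1 lower. The summed linear intensity of the 9 markers was 66274 to 69543 on KO arrays and 35280 to 40851 on WT arrays. Markers of adventitial fibroblasts and progenitors also differed. Of 11 listed, 9 were tested and all 9 were higher in KO, and the sum over the 10 with a probe was 56974 to 60439 on KO arrays, against 3590 to 3782 on WT arrays, with Col14a1 at background throughout. None of the 6 endothelial markers was above background on any array. Of the 8 leukocyte markers, 5 had a probe, and 2 were tested and both were higher in KO, with Ptprc, Itgam and Adgre1 at background. The sums over the 5, which include the probes at background, were 321 to 343 on KO arrays, against 154 to 158 on WT arrays. Of the 10 Schwann cell and neuron markers, 7 had a probe, and 2 were tested and both were higher in KO, with S100b, Tubb3, Snap25 and Rbfox3 at background. The sums over the 7, again with the probes at background, were 1146 to 1212 on KO arrays, against 489 to 595 on WT arrays. The part of these markers in the results below was not tested.

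Among the calmodulin and CaM kinase probes, Camk2g and the calmodulin genes were higher in KO cells and Camkk2 was lower, while Camk2d differed between its probes. Of the 10 tested probes, 4 were higher and 3 were lower in KO at a limma adjusted p under 0.05, and 3 did not pass. Over all 12040 tested probes 56.3% passed, 26.3% higher and 30.0% lower, against 70% of the calmodulin and CaM kinase probes, 40% higher and 30% lower. The member counts are small and lie near this background. The median log2 difference was 0.03 over the 10 probes and -0.02 over all tested probes, and the median size of the difference, regardless of sign, was 0.41 and 0.27 on the same scale. The 4 KO arrays lay apart from the 4 WT arrays at 7 of the 10 probes, against 51.5% of all tested probes. In these bulk samples a lower value cannot tell fewer cells of a type from less RNA per cell.

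**Figure D1:**
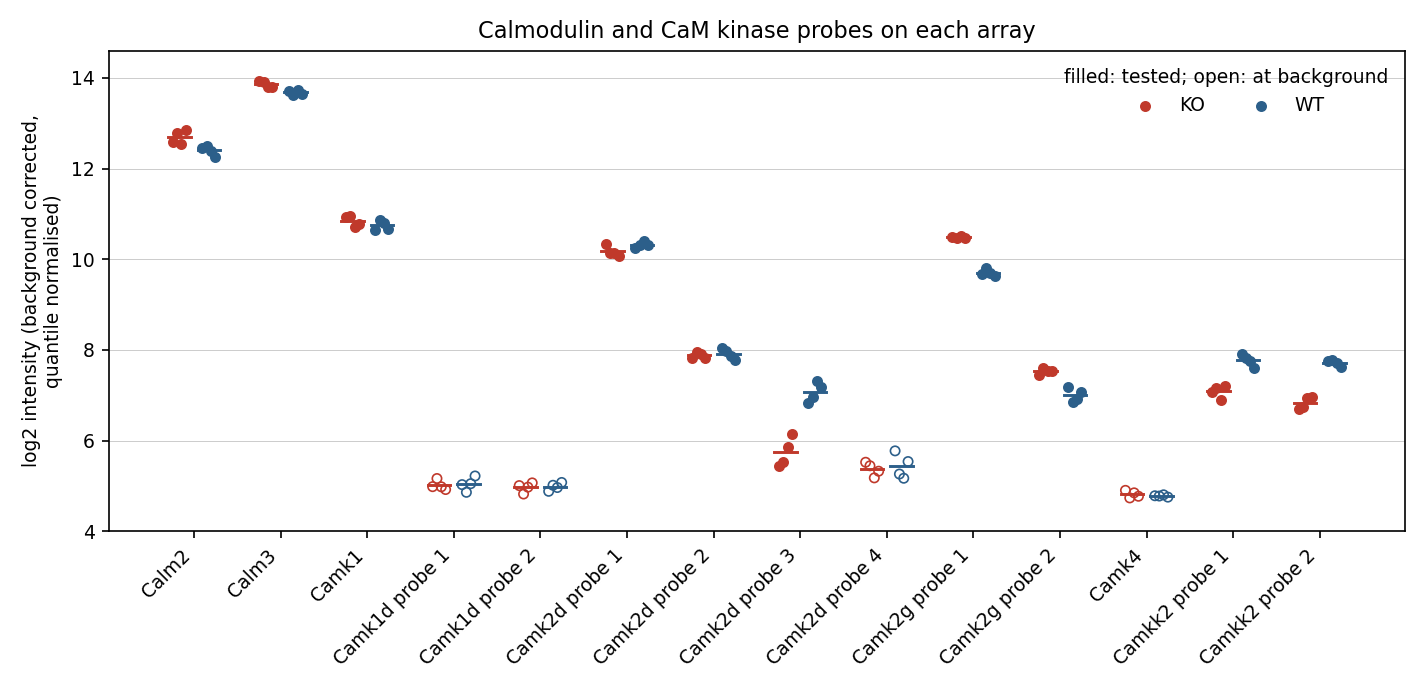
Log2 intensity (vertical axis) of each of the 14 probes on each array, with KO in red to the left of WT in blue and a bar at each group mean. Filled points are tested probes and open points are probes at background. Probes of a gene are numbered from the brightest. Camk2g lies higher and Camkk2 lower on all 4 KO arrays at both probes, whereas only probe 3 of Camk2d separates the genotypes.

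Promoters are shown as sequence context for Calm3, a calmodulin gene called higher in KO, and Camkk2, the kinase lower at both of its probes. The Calm3 difference was small (log2 0.17) and lost its call in 6 of 18 alternatives. Both promoters come from the RefSeq promoter table for GRCm38.p6, which holds 250 bases before to 50 after each start and matched 6 of the 9 genes. Each is given 5′ to 3′ on the gene's own strand. Capitals mark 3 motifs searched on both strands: the GC box GGGCGG, the CCAAT box CCAAT and the half-site TGACG of the cyclic AMP response element bound by CREB, a transcription factor that CaM kinases phosphorylate.
Calm3 (chr7:16923983-16924282, minus strand): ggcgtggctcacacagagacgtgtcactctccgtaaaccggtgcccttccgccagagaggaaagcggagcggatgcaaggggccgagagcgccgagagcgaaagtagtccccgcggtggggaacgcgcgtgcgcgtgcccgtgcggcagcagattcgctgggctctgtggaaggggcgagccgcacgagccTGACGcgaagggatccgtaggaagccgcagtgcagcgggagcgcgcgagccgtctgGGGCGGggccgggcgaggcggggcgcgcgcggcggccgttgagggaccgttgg
Camkk2 (chr5:122779361-122779660, minus strand): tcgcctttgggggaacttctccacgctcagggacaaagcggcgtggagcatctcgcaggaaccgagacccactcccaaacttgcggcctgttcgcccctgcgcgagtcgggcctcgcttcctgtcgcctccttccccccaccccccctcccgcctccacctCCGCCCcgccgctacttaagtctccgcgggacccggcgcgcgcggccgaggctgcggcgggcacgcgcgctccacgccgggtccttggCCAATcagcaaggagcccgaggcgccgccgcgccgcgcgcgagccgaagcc
The Calm3 window held 1 GC box and 1 TGACG half-site, and the Camkk2 window held 1 GC box and 1 CCAAT box. Among all 32851 promoter windows of the table, 35.7% held the GC box, 37.4% the CCAAT box and 20.8% the TGACG half-site, which is also part of the full element. The full element TGACGTCA, present in 1.79% of windows, was in neither window shown. The half-site was also in the windows of Camk1, which did not pass, and Camkk1, which had no probe. These letter matches are a description of the windows and not binding sites.

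Calmodulin itself was measured through Calm2 and Calm3, which encode the same protein from separate genes. Calm2 (probe ILMN_2856697) had log2 intensities of 12.60, 12.78, 12.54 and 12.85 on the KO arrays, against 12.46, 12.51, 12.39 and 12.25 on the WT arrays. All 4 KO arrays lay above all 4 WT arrays, with a narrow gap. The log2 difference was 0.29 with a standard error of 0.09, or 1.22-fold (limma adjusted p = 0.0172). Without KO replicate 2 the adjusted p was 0.0505 and the call ended. Calm3 (probe ILMN_1215681) had 13.93, 13.90, 13.79 and 13.80 on the KO arrays, against 13.71, 13.63, 13.74 and 13.65 on the WT arrays. The groups again did not overlap, and the log2 difference was 0.17 with a standard error of 0.06, or 1.13-fold (limma adjusted p = 0.0338). This call was lost in 6 of 18 alternatives, among them median scaling and leaving out KO replicate 1 or 2 or WT replicate 2 or 4 (adjusted p up to 0.109). In deposited intensities before normalisation, Calm3 read 14043 to 15438 on KO arrays and 12894 to 13667 on WT arrays, and Calm2 read 5997 to 7396 and 4791 to 5977 on the same groups of arrays.

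The upstream kinase Camkk2, which activates CaMKI, CaMKIV and AMPK, was lower in KO at both of its probes. Probe 1 (ILMN_2846803) had log2 intensities of 7.08, 7.16, 6.89 and 7.21 on the KO arrays, against 7.90, 7.83, 7.75 and 7.59 on the WT arrays. Every KO array was below every WT array. The log2 difference was -0.68 with a standard error of 0.09, 1.60-fold lower (limma adjusted p = 0.000125). Probe 2 (ILMN_1256263) had 6.70, 6.74, 6.94 and 6.95 on the KO arrays, against 7.76, 7.77, 7.70 and 7.63 on the WT arrays. The separation was wider here than at probe 1, with a log2 difference of -0.88 and a standard error of 0.08, 1.84-fold lower (limma adjusted p = 5.42e-06). The deposited intensities of this probe were 85.7 to 112 on KO arrays and 177 to 212 on WT arrays. Both Camkk2 probes passed under all 18 alternatives.

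Of Camk1, Camk1d and Camk4, which encode kinases that CaMKK phosphorylates, only Camk1 was above background. Camk1 (probe ILMN_2944939), which encodes CaMKI alpha, had log2 intensities of 10.94, 10.95, 10.71 and 10.78 on the KO arrays, against 10.64, 10.87, 10.80 and 10.67 on the WT arrays. The groups overlapped. KO exceeded WT by 0.10 on the log2 scale (95% confidence interval -0.08 to 0.28, limma adjusted p = 0.330). Over 18 alternatives the difference ran from 0.062 without WT replicate 1 to 0.14 without KO replicate 3, and it passed in none. Camk1d, which encodes CaMKI delta, was at background on all 8 arrays at both of its probes, with log2 intensities of 4.82 to 5.16 on KO arrays and 4.86 to 5.22 on WT arrays. Camk4, whose kinase CaMKIV is best known from neurons and T cells, was at background too, at 4.73 to 4.90 on KO arrays and 4.75 to 4.80 on WT arrays. For these genes no difference was detectable with these probes.

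Camk2g, which encodes the gamma isoform of CaMKII, was higher in KO at both probes. Probe 1 (ILMN_2765196) had log2 intensities of 10.48, 10.47, 10.52 and 10.47 on the KO arrays, against 9.67, 9.80, 9.69 and 9.64 on the WT arrays. The KO arrays were nearly identical and lay far above the WT arrays, with group means of 10.49 ± 0.02 in KO and 9.70 ± 0.07 in WT (SD, n = 4 each). The log2 difference was 0.79 with a standard error of 0.06, or 1.72-fold (limma adjusted p = 1.79e-06). Probe 2 (ILMN_3135323) had 7.44, 7.60, 7.53 and 7.53 on the KO arrays, against 7.17, 6.85, 6.92 and 7.07 on the WT arrays. Its groups did not overlap either, and the log2 difference was 0.52 with a standard error of 0.08, or 1.44-fold (limma adjusted p = 0.000322). Both calls held under all 18 alternatives.

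Camk2d, which encodes the delta isoform of CaMKII, has 4 probes on the array, and they did not behave alike. Probe 1 (ILMN_1222123) had log2 intensities of 10.34, 10.13, 10.15 and 10.08 on the KO arrays, against 10.25, 10.32, 10.40 and 10.32 on the WT arrays. KO replicate 1 lay among the WT arrays and the other 3 KO arrays below them. The log2 difference was -0.15 (95% confidence interval -0.31 to 0.01, limma adjusted p = 0.107), and it passed the threshold under median scaling (adjusted p = 0.0484) and without KO replicate 1 (adjusted p = 0.0272). Probe 2 (ILMN_3044195) had 7.83, 7.96, 7.91 and 7.81 on the KO arrays, against 8.04, 7.98, 7.86 and 7.78 on the WT arrays, with overlapping groups and a log2 difference of -0.04 (95% confidence interval -0.20 to 0.13, limma adjusted p = 0.693).

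Probe 3 of Camk2d (ILMN_3119478) had log2 intensities of 5.45, 5.52, 5.85 and 6.14 on the KO arrays, against 6.82, 6.96, 7.31 and 7.18 on the WT arrays. The genotypes did not overlap, and the probe was above background on all 4 WT arrays but on KO replicates 3 and 4 only. The log2 difference was -1.33 with a standard error of 0.16, 2.51-fold lower (limma adjusted p = 6.15e-05), the largest among the 10 tested calmodulin and CaM kinase probes. Its size depends on the background correction, at -0.77 under normexp with an offset of 50 and -1.77 with no background correction, since the KO values lie close to background. Probe 4 (ILMN_3070701) was at background on all arrays, at 5.18 to 5.52 on KO arrays and 5.17 to 5.77 on WT arrays. The platform annotation assigns probes 2 and 3 to the same Camk2d transcript record, and these differed in call. Probe sequences were not used here, so which exons the probes read is not stated.

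**Figure D2:**
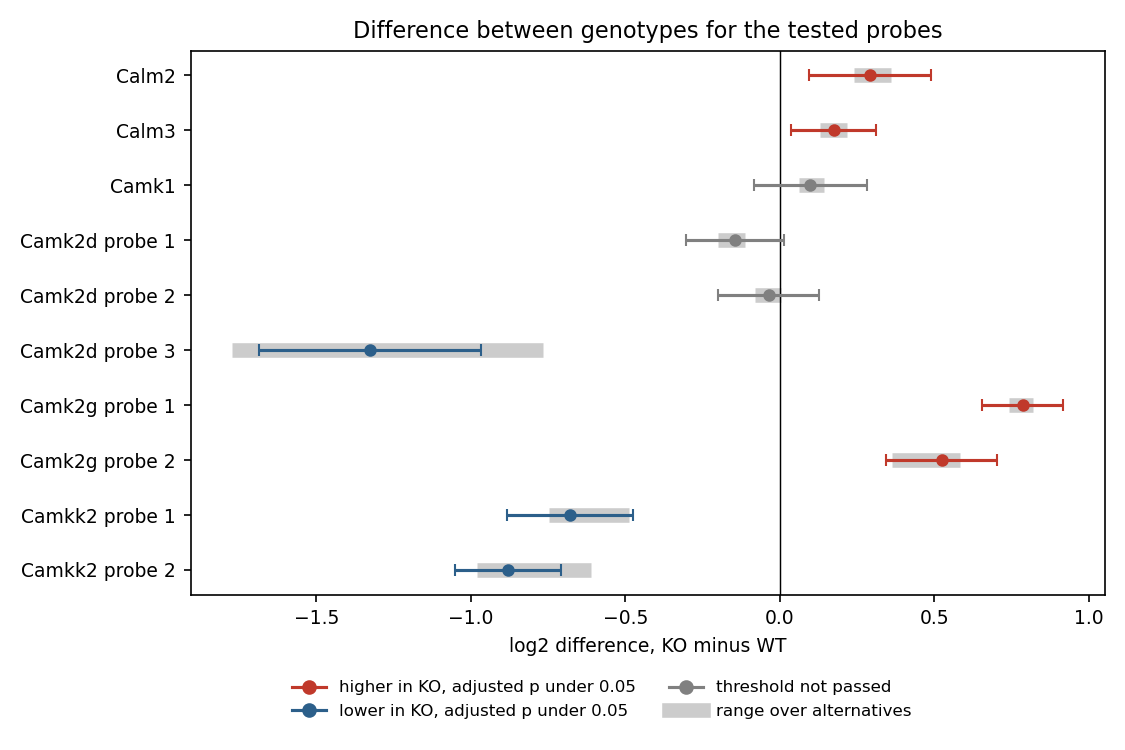
Log2 difference between KO and WT (horizontal axis) for each of the 10 tested probes, with the 95% confidence interval of the limma fit as a bar and the range over 18 processing alternatives as a grey band. The intervals of the Camk2g probes lie above 0, those of the Camkk2 probes below 0, and the Camk2d probes extend from -1.33 to -0.04.

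Whether relatives changed unequally was asked within each array, from the brightest tested probe of each gene. The gap between different probes has no meaning by itself, so only its change between genotypes is read. Of 4 gene pairs planned, 2 had both genes tested. The log2 value of Camk2d minus that of Camk2g was -0.14, -0.34, -0.38 and -0.39 on the KO arrays, against 0.58, 0.52, 0.70 and 0.68 on the WT arrays. All KO arrays lay below all WT arrays, and the log2 change in the mean was -0.93 (exact two-sided permutation p = 0.0286, the smallest that 4 against 4 arrays allow). Adjusted over the 2 pairs this p was 0.0571 and did not pass 0.05. The log2 value of Calm2 minus that of Calm3 was -1.33, -1.12, -1.24 and -0.94 on the KO arrays, against -1.25, -1.12, -1.35 and -1.40 on the WT arrays. These overlapped, with a mean change of 0.12 (exact two-sided permutation p = 0.286, adjusted p = 0.286).

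**Figure D3:**
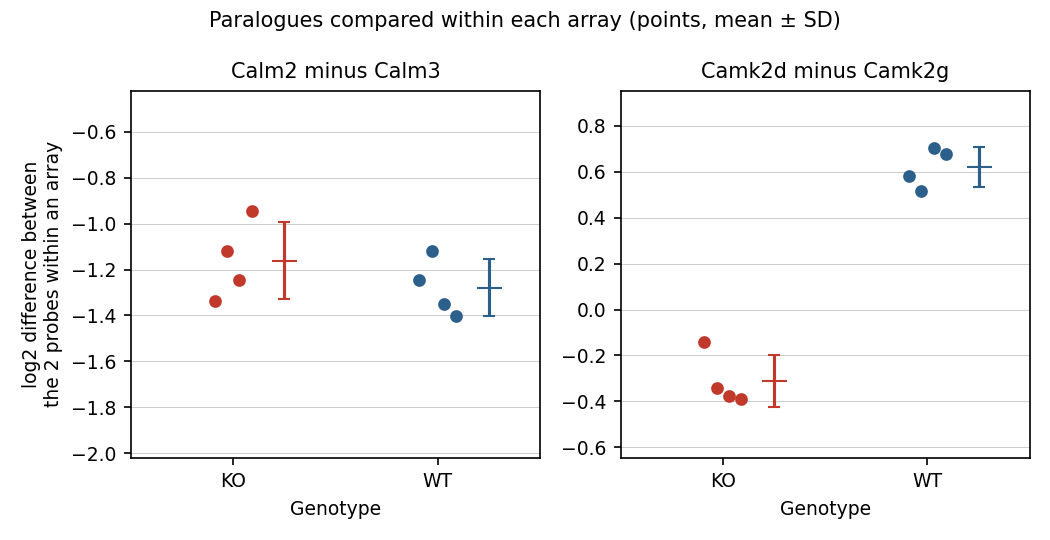
Within-array log2 difference between the brightest probes of 2 related genes (vertical axis) for KO and WT arrays, each point 1 array, with the group mean and SD (n = 4) beside the points. Both panels span the same height. The Camk2d minus Camk2g points are below 0 on all KO arrays and above 0.5 on all WT arrays, while the Calm2 minus Calm3 points overlap.

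Other genes of calmodulin signalling moved in both directions. Of 88 listed, 78 had a probe and 49 were tested, each by its brightest tested probe. At a limma adjusted p under 0.05, 16 were higher and 14 lower in KO, and 19 did not pass. That is 32.7% higher and 28.6% lower, against 26.9% and 30.7% of all 8302 tested genes (57.6% called in all), and the median log2 difference was -0.04, against -0.02 over all tested genes. The lists together thus lie near the background.

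Of the calmodulin-like genes only Calml4 was tested, with group means of 7.99 ± 0.19 in KO and 7.27 ± 0.33 in WT (SD, n = 4 each), a log2 difference of 0.72 (limma adjusted p = 0.00290). Calm4, Calm5 and Calml3 did not pass the filter on dim probes. Of 4 tested buffers and scaffolds, proteins that bind calmodulin and can hold it, 3 were lower and 0 were higher (median -0.41). Iqgap3, a scaffold of the IQGAP family linked to proliferation, was at background on every KO array and was at least 1.96-fold lower, with means of 5.19 in KO and 6.76 in WT. Its fitted log2 difference of -1.57 was -0.91 under normexp with an offset of 50. Marcksl1, a calmodulin-binding substrate of protein kinase C, was lower by all 4 of its tested probes, at -0.56 for the brightest. Iqgap1 was lower by less, at -0.26, a call that ended under cyclic loess (adjusted p = 0.0517).

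Of 12 other calmodulin-dependent or CaM kinase-related kinases tested, 4 were higher and 5 lower (median -0.03). Mylk, the myosin light chain kinase, was at background on all WT arrays and was at least 11.7-fold higher in KO, with means of 9.35 in KO and 5.17 in WT. Mylk is also among the smooth muscle markers above, so this is not a separate observation. Its fitted log2 difference of 4.18 was 2.96 under normexp with an offset of 50 and 5.32 with no background correction. The bound therefore depends on the background correction. Pnck, which encodes CaMKI beta, was likewise at background on all WT arrays and at least 1.69-fold higher, with means of 6.56 in KO and 5.12 in WT. Camk2b, the beta isoform of CaMKII, was 2.00-fold lower (limma adjusted p = 0.000286), with 2 of 4 KO arrays above background. Its log2 difference was -0.57 under normexp with an offset of 50 and -1.33 with no background correction. Phka2, a regulatory subunit of phosphorylase kinase, an enzyme that carries calmodulin as a built-in subunit, was lower by all 3 of its probes, 2.28-fold at the brightest. The remaining calls, which fall outside the rule for named genes and were chosen after their values were seen, were Cask at 0.56, Dclk1 at 0.17, Eef2k at -0.81, Dclk2 at -0.68 and Dapk3 at -0.24. The Dclk1 call was lost in 11 of 18 alternatives and the Dapk3 call in 3, and Dclk2, above background on 1 of 4 KO arrays, was at -0.37 under normexp with an offset of 50 and at -1.20 with no background correction. Camk2a and Camk1g, the other CaMKII and CaMKI isoforms listed, did not pass the filter on dim probes.

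Among the proteins that restrain the CaM kinases, Ppm1f, a phosphatase that removes the activating phosphates of CaM kinases, was higher in KO at 11.73 ± 0.04, against 11.39 ± 0.07 in WT (SD, n = 4 each), a log2 difference of 0.34 (limma adjusted p = 0.000776), and 1 of its 2 tested probes passed. Camk2n1, an inhibitor of CaMKII, had 9.03 ± 0.08 in KO and 9.10 ± 0.18 in WT and did not pass (log2 difference -0.06, limma adjusted p = 0.577).

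Of 14 tested targets and co-regulators of transcription, 2 were higher, 4 were lower and 8 did not pass (median -0.05). Crem, a regulator that binds cyclic AMP response elements, was lower by all 3 tested probes, at -0.71 for the brightest, and Hdac4, a class IIa deacetylase that CaMKII phosphorylates, was lower at -0.66. The coactivator Ep300 was lower at -0.28, and Hdac5, outside the rule for named genes and chosen after its values were seen, at -0.22. Of the 3 tested Hdac5 probes, 2 passed. Mef2b was higher at 0.40 with 1 of 4 WT arrays above background, a call lost in 3 of 17 alternatives. Mef2c, also outside the rule, was higher by all 3 tested probes, from 0.27 to 0.81, with 0.27 at the brightest. Creb1, whose product CREB is a CaM kinase substrate, had 6.44 ± 0.15 in KO and 6.50 ± 0.34 in WT and did not pass (limma adjusted p = 0.791), also outside the rule, and its log2 difference of -0.05 changed sign in 3 of 18 alternatives. For Crem and Mef2b the log2 differences were -0.44 and 0.22 under normexp with an offset of 50.

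Camkk2 phosphorylates AMPK, and of 4 tested AMPK subunit and Stk11 genes 1 was higher, 1 was lower and 2 did not pass (median -0.11). The catalytic alpha subunit genes were not among them, since Prkaa1 had no probe and Prkaa2 did not pass the filter on dim probes. Prkab1, the beta 1 subunit, had 9.87 ± 0.06 in KO and 10.42 ± 0.07 in WT (SD, n = 4 each), a log2 difference of -0.56 (limma adjusted p = 3.64e-05). Prkab2, the beta 2 subunit, had a log2 difference of 0.30, which lost its call in 7 of 18 alternatives and was 0.20 under normexp with an offset of 50. Stk11, an AMPK kinase outside the rule for named genes, differed by -0.12 without passing (limma adjusted p = 0.194), and by -0.065 without KO replicate 1.

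Of 12 other tested genes whose products calmodulin regulates, 7 were higher, 1 was lower and 4 did not pass (median 0.42). Rasgrf1, an exchange factor that activates Ras when calmodulin binds, was at background on all WT arrays and at least 13.9-fold higher in KO, with means of 9.61 in KO and 4.94 in WT and the same call at all 4 probes. Its fitted log2 difference of 4.67 was 3.41 under normexp with an offset of 50. Pde1b and Pde1a encode calmodulin-dependent phosphodiesterases of cyclic nucleotides and moved in opposite directions. Pde1b had 8.79 ± 0.06 in KO and 6.68 ± 0.21 in WT (SD, n = 4 each), 4.33-fold higher (limma adjusted p = 6.47e-08). Pde1a, the only lower gene of this list and named after its values were seen, had 7.72 ± 0.25 in KO and 8.66 ± 0.15 in WT, lower by all 3 probes and 1.92-fold at the brightest. Adcy8, a calmodulin-stimulated adenylyl cyclase, was at background on all WT arrays and at least 2.34-fold higher, and Cald1, which encodes the actin-binding caldesmon, was 2.47-fold higher. The fitted log2 difference of Adcy8 was 1.44, and 0.82 under normexp with an offset of 50. The other higher genes, outside the rule for named genes, were Add3 at 0.59, Strn3 at 0.51 and Camta2 at 0.32 on the log2 scale.

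**Figure D4:**
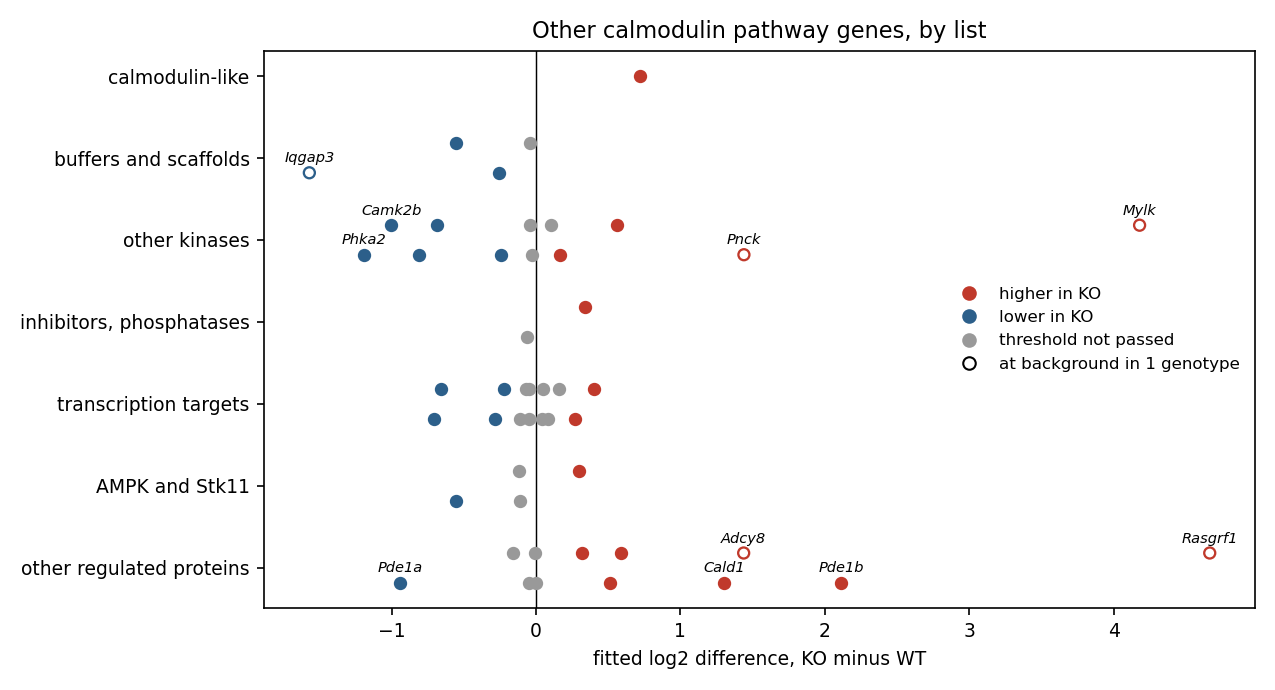
Fitted log2 difference between KO and WT (horizontal axis) for the 49 other calmodulin pathway genes tested, by list; each point is a gene, red if higher in KO, blue if lower, grey if the threshold was not passed, and open if 1 genotype was at background. Positions of open points are fitted values and not bounds. Rasgrf1 and Mylk lie above 4, while 19 grey points lie near 0.

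By its brightest tested probe, Camk2g had the largest change among the calmodulin and CaM kinase genes. The genes whose log2 values followed it most closely over the 8 arrays were Dnmt3l, Lipo3 and Pdgfrl, with Pearson correlations from 0.997 to 0.998. Such values are common here, since 1251 of the 8301 other genes exceeded a correlation of 0.9 with Camk2g and all points share the split between the genotypes.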

How the data were processed

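RNA from the sorted cells (PicoPure kit) was labelled as biotinylated cRNA for Illumina arrays, per the labels' protocols. The deposited non-normalized table gives a signal intensity per probe and array, with 28.4% to 29.7% of values below 0 on each array, so background had been subtracted before deposit. It also holds a detection p-value for each, per the file headers. A second deposited table holds log2 values with identical distributions on all arrays (median 6.05), used as an alternative only. The software of either table, not given in the sources used here, is unknown.

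Intensities were background corrected and quantile normalised with the neqc function (limma 3.58.1, R 4.3.3; negative controls inferred from detection p-values, offset 16, log2). Probes detected at p under 0.05 on 4 or more arrays, 12040 in all, were fitted with lmFit and eBayes, KO minus WT, without a block, and adjusted by Benjamini-Hochberg over all of them. The fit was also run on simulated arrays with few changed probes and independent noise. These settings differ from the data here, so that run does not bear on the calls. Log2 values and differences are on this scale, and errors are standard errors of the fit or SDs of 4 arrays. Where a probe was at background on every array of 1 genotype, a fold is a lower bound, from the bright group's mean and, for each dim array, the higher of the probe's value and the lowest detected value. Such a bound was computed on this scale only and may not hold on another. Under normexp with an offset of 50 the fitted differences of Mylk, Rasgrf1, Adcy8 and Iqgap3 were smaller than their bounds.

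Probes were named from the platform annotation, with symbols updated to GRCm38.p6. A unique gene symbol was found for 23978 of 25697 probes, several for 0 and none for 1719, and 23962 matched the gene table. A related gene was represented by its brightest tested probe. Named were all member probes, all tested calmodulin-like, inhibitor and phosphatase genes, and up to 4 called genes of largest change from each other list; genes outside this rule are marked where named. Members and lists were chosen with earlier results of these data known. Alternatives changed the background correction, normalisation, source of values, filter, spread model, array weights, block and arrays. Figures used matplotlib 3.10.9.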

Additional observations from a re-analysis of the deposited data

Results flagged for a closer look

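Of 92 groups of 4 arrays checked, 6 held an array far from the other 3, a gap that chance gives in about 1 in 20 groups. None was a probe of Calm2, Calm3, Camk1, Camk2d, Camk2g or Camkk2. KO replicate 2 read 6.59 for Crem, against 6.40 on each of the other 3 KO arrays. KO replicate 4 read 10.07 for Ep300, against 9.91 to 9.94 on the others. KO replicate 1 read 8.10 for Pde1a, against 7.59 to 7.60. Among the WT arrays, replicate 4 read 4.84 for Pnck, against 5.18 to 5.23, and 8.08 for Dapk3, against 7.96 to 7.98, and replicate 3 read 10.15 for Add3, against 9.83 to 9.85.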

How the results depend on the processing

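The count of calmodulin and CaM kinase probes higher in KO was 2 to 4 and that of probes lower in KO 3 to 4 over 18 alternatives, from 4 and 3. The only count that moved by over 1.5 times was that of higher probes without KO replicate 2, at 2. Among other pathway genes, 13 to 16 were higher and 13 to 15 lower over 19 alternatives. Of the 10 member probes, 6 kept direction and call under all alternatives, and of 34 other genes described, Atp2b4 included, 26 did. Directions reversed only for values near 0 that had not passed. With 1 array left out, Camk2d probe 2 ran from -0.081 to 0.0033 (above 0 without WT replicate 1), Atp2b4 from -0.016 to 0.19 (below 0 without KO replicate 1) and Camk2n1 from -0.12 to 0.019 (above 0 without WT replicate 3). Creb1 ran from -0.20 to 0.063, above 0 without KO replicate 3 (0.0058) or WT replicate 3 (0.063), and was 0.0084 under cyclic loess. Camk2d minus Camk2g changed by -0.99 to -0.90 with an array left out. Calm2 minus Calm3 changed by 0.045 to 0.17. Whether equal replicate numbers mark pairs cannot be told from so few correlations. Deviations of same-numbered arrays correlated at -0.03 to 0.09, 0 of 4 exceeded 0.1, and 2 of 4 KO arrays correlated best with their own number. Arrays of unlike number correlated at -0.08 to 0.09. With the replicate block, 4 pairs allow no permutation p under 0.125, and the counts of member probes were 3 higher and 3 lower, Calm3 not passing. The 4 member probes at background on all arrays gave no test.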
